A study of Mus musculus with 6 samples.

Results

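The 5 genes described here are Luc7l, Luc7l2 and Luc7l3, which form the Luc7-like family, together with Rbm25 and Rbm39. They were selected on splicing changes in these same data, since the tables listed Luc7l2 and Luc7l, so the listing of those genes is a description and supports nothing. Every local splicing variation (LSV, a reference exon with all junctions and retained introns that leave or enter it) whose gene name is a member was taken and matched between diets by its identifier. The genes are 5 of 7182 in the tables and hold 53 of 32799 LSVs, of which 49 were measured on both diets, with 133 junctions or introns. None of these 133 entries has a length of 0.

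Hepatocytes were isolated from the livers of male C57BL/6J mice given food with 60% fat (high-fat diet, HFD) or 10% fat (low-fat diet, LFD), with 3 mRNA libraries for each diet. Until they were 8 weeks old all mice ate chow containing 13.5% fat, and HFD or LFD then lasted 12 weeks. The value given for a junction is PSI, the fraction of an LSV's reads that use it. The authors pooled the libraries of a diet into 1 PSI with a posterior variance, so an SD below is the posterior SD of that pooled value and shows nothing of the spread between mice.

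LUC7-like proteins are relatives of a yeast protein of the U1 small nuclear ribonucleoprotein (U1 snRNP), the particle that first recognises the 5' splice site of an intron, and they influence which 5' splice sites are used. RBM25 is an RNA-binding protein that associates with U1 components, including LUC7L3, and alters 5' splice site choice. RBM39 resembles the large subunit of U2AF, which binds the end of the intron, and is the protein that aryl sulfonamide drugs direct to degradation. Many splicing factors carry so-called poison exons, which bring in an early stop codon and mark the transcript for nonsense-mediated decay (NMD), a route by which such proteins are known to limit their own amount.

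The sequences shown here are of exons found in NMD transcripts and of exons whose splicing is described below. They were read from GENCODE M21 transcripts on mm10 (GRCm38). Luc7l and Luc7l2 each have an exon of 71 bases that M21 places only in NMD or other transcripts without a protein-coding label, and in each gene it is followed by a coding exon of 95 bases. Both pairs are shown because the splicing differences of these genes fall on them. Capitals mark the bases that differ between the genes, with the exons laid side by side without gaps. The 71-base exons lie at chr17:26253974-26254044 and chr6:38568847-38568917, both on the plus strand.
Luc7l 71-base exon: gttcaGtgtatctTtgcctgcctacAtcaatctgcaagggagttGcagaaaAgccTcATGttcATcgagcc
Luc7l2 71-base exon: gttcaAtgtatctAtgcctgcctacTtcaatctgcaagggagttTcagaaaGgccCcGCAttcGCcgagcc
The 95-base coding exons lie at chr17:26255031-26255125 and chr6:38570510-38570604.
Luc7l 95-base exon: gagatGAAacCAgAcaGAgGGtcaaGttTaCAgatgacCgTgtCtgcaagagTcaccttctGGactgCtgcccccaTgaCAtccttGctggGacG
Luc7l2 95-base exon: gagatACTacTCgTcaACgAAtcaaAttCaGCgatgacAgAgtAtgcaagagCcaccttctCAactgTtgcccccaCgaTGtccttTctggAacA
The 71-base exons are identical at 60 of 71 bases (84.5%), and the coding exons after them at 68 of 95 bases (71.6%). No stop codon is annotated within either 71-base exon in the transcripts read, Luc7l-206 and Luc7l2-202.

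In Rbm25 the largest difference concerns a 118-base exon at chr12:83642402-83642519 on the plus strand. Its last 42 bases are annotated as coding in Rbm25-207, and capitals mark the start codon annotated there.
Rbm25 118-base exon, coding stretch: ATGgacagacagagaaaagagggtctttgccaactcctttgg
This start codon lies 57 bases, or 19 codons, before the start codon of the principal transcript Rbm25-201 and in the same frame.

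Rbm39 has an NMD exon of 73 bases, used on both diets, at chr2:156178880-156178952 on the minus strand. Its coding stretch in Rbm39-212 is shown with the stop codon in capitals.
Rbm39 73-base exon, coding stretch: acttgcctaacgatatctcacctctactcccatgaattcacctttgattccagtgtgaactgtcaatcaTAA
A further Rbm39 exon has a pair of acceptor sites in Rbm39-203 and Rbm39-201, at chr2:156154239-156154289 on the minus strand, and capitals mark the 18 bases that the upstream acceptor adds.
Rbm39 exon with the added bases: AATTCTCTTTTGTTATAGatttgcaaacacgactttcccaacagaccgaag

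Because the members were chosen on splicing changes in these data, differences larger than those over all LSVs are a description only. The largest PSI difference within an LSV had a median of 0.0168 over the 49 member LSVs, against 0.00681 over all 26910 LSVs measured on both diets, and 35 of the 49 stayed under 0.05. The share at 0.05 or more was 28.6% of member LSVs, against 14.3% of all LSVs. LSVs with more junctions can show larger differences, and among those with at least 4 entries the median was 0.0722 for 10 member LSVs and 0.0254 for all 3077. Of the 133 member entries, PSI was higher on HFD for 56, lower for 52 and within 0.0001 for 25. By gene, the median largest difference was 0.0556 over 13 LSVs of Luc7l2, 0.0154 over 5 of Luc7l3, 0.00954 over 11 of Rbm25, 0.00932 over 17 of Rbm39 and 4.5e-05 over 3 of Luc7l. Luc7l2, a gene behind the choice of members, held 3 of the 4 member LSVs with a difference of 0.1 or more.

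**Figure D1:**
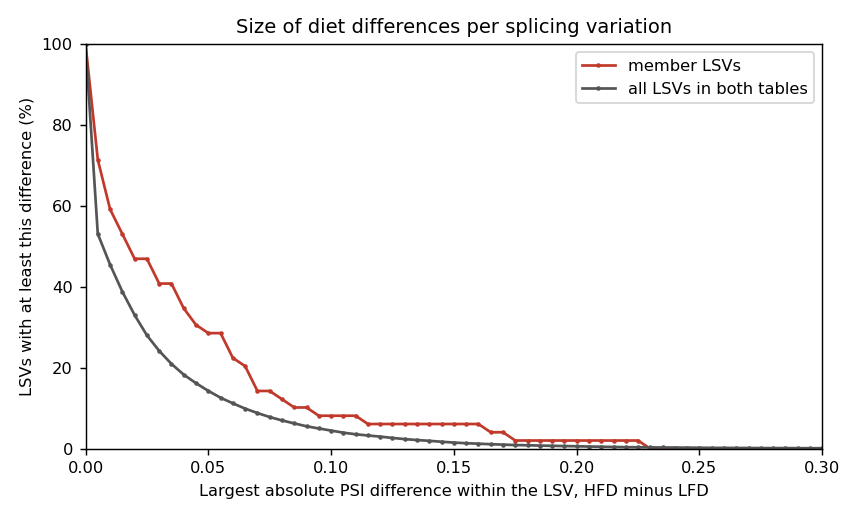
Share of LSVs (vertical axis, percent) whose largest absolute PSI difference between HFD and LFD is at least the value on the horizontal axis, for the 49 member LSVs (red) and all 26910 LSVs in both tables (grey). At a difference of 0.1 the shares are 8.16% of member LSVs and 4.50% of all LSVs. The members were chosen on splicing changes in these data.

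A junction or intron was counted as different when PSI differed by 0.2 or more and the 95% posterior interval of the difference, built from the posterior variances of both diets, excluded 0. Applied to every entry, this rule gave 1 of 133 member entries, against 0.417% of all 68110 entries, and 1 of 49 member LSVs, against 0.624% of all LSVs. The member was Rbm25. With a smallest change of 0.1, 7 member entries in 4 LSVs were counted, 5 in Luc7l2 and 2 in Rbm25. The background at that limit was 2.87% of entries and 4.17% of LSVs. At counts this small the member shares cannot be set apart from the background.

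**Figure D2:**
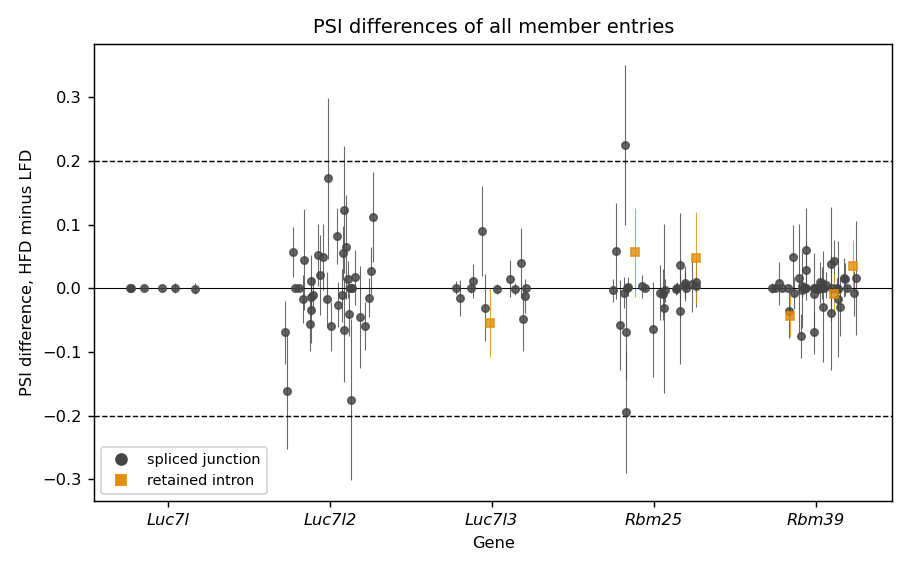
PSI difference (HFD minus LFD, vertical axis) of each of the 133 member entries by gene, with bars for the 95% posterior interval and dashed lines at 0.2 above and below 0. Luc7l2 and Rbm25 hold the entries beyond 0.1, and Luc7l stays at 0 in the PSI tables.

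Among the Luc7-like genes, Luc7l2 had the largest differences in the PSI tables, and they lay at its 5' end. From the donor of its first exon, at chr6:38551908, nearly all reads went either to an acceptor at 38554980 or straight to the 95-base coding exon. M21 has the junction to that acceptor in 5 transcripts, and in 3 of them it begins an 84-base exon, chr6:38554980-38555063. The junction to this acceptor had a PSI of 0.572 ± 0.0493 on HFD and 0.398 ± 0.0416 on LFD, a difference of 0.173 (95% posterior interval 0.0469 to 0.3). The direct junction, which the principal transcript Luc7l2-201 uses, had 0.424 ± 0.0493 on HFD and 0.599 ± 0.0416 on LFD. By the pooled PSI values the order of the routes was opposite on HFD and LFD, but the order within a diet was not tested. The 95% intervals of both differences between diets excluded 0, while the differences stayed under 0.2. The 84-base exon carries no coding base in Luc7l2-207, a protein-coding transcript that begins its reading frame further downstream.

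The same region was also measured from the other side, at the acceptor of the 95-base exon. There the direct junction from the first exon took 0.230 ± 0.0318 of the reads on HFD and 0.392 ± 0.0339 on LFD, a difference of -0.161 (-0.252 to -0.07). The junction from the 71-base NMD exon printed above took 0.568 ± 0.0371 on HFD and 0.444 ± 0.0345 on LFD, a difference of 0.124 (0.0244 to 0.223). It had the highest PSI of the routes into this coding exon on both diets, although on LFD its range of 1 SD overlapped that of the direct junction. The junction from the end of the 84-base exon took 0.0140 ± 0.0061 on HFD and 0.0549 ± 0.0164 on LFD, a lower value on HFD, whereas the junction to the acceptor at its start had the higher value on HFD. The PSI to that acceptor is therefore no measure of how often the 84-base exon itself was joined to the coding exon.

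A pair of further NMD exons lies between the first exon and the 71-base exon. The 101-base exon at chr6:38559204-38559304 joined the coding exon directly with a PSI of 0.0815 ± 0.0206 on HFD and 0.0292 ± 0.0139 on LFD. The 68-base exon at chr6:38565655-38565722 did so with 0.0708 ± 0.0195 on HFD and 0.0134 ± 0.00473 on LFD. Both junctions skip the 71-base exon, neither is in M21, and both differences were under 0.1 with 95% intervals above 0 in this view. Among reads that leave the 101-base exon, its junction to the coding exon had 0.0867 ± 0.0219 on HFD and 0.0372 ± 0.0151 on LFD, and the interval of the difference, -0.00258 to 0.102, included 0. Within the upstream exons, the junction from the 101-base to the 71-base exon, also outside M21, had 0.0125 on HFD, the lowest value these tables hold, and 0.0723 ± 0.0195 on LFD. The annotated junction from the 68-base to the 71-base exon had 0.928 ± 0.0199 on HFD and 0.984 ± 0.00942 on LFD among reads that leave the 68-base exon. Among reads that enter the 71-base exon it had 0.987 ± 0.00442 on HFD and 0.904 ± 0.0218 on LFD, so its direction depended on which exon served as the reference. Entries of neighbouring LSVs share reads, so these values are several views of the same molecules and not separate observations.

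**Figure D3:**
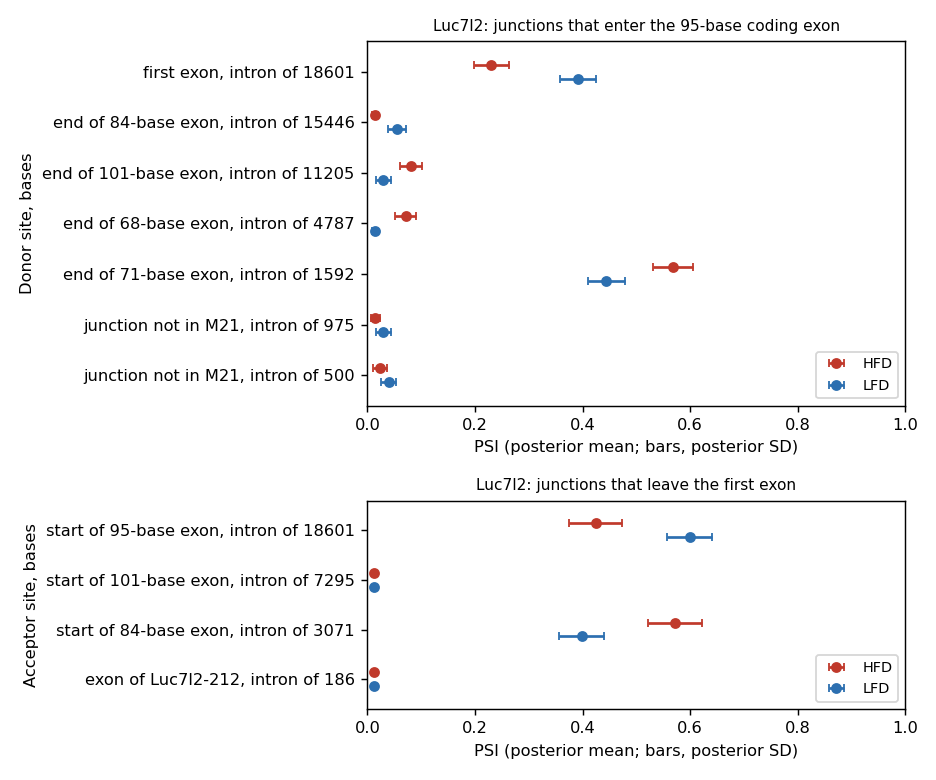
PSI (horizontal axis) of each junction that enters the 95-base coding exon of Luc7l2 (top) or leaves its first exon (bottom), on HFD (red, above) and LFD (blue, below), with bars of 1 posterior SD and introns given by length in bases. The direct junction from the first exon is lower on HFD in both panels, and the junctions from the 71-base exon (top) and to the acceptor at the start of the 84-base exon (bottom) are higher.

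Luc7l2 is also the 1 member of the authors' deposited table of PSI changes (dPSI), which lists 1 of the 49 member LSVs and 0.36% of all LSVs in both PSI tables. The reference exon of the listed LSV is 38568847-38569565, a stretch that begins with the 71-base exon. Its entries leave from the end of the 71-base exon at 38568917, or from 38569534 and 38569565 beyond it. In the authors' deposited table, the junction from 38568917 to the 95-base exon has a PSI of 0.970 on HFD and 0.635 on LFD, a dPSI of 0.341. The authors' deposited table also gives this LSV an entry of length 0, from base 38569565 to base 38569566, with 0.002 on HFD and 0.288 on LFD. Its coordinates are adjacent bases, as are those of retained-intron entries, but no intron is listed that matches it. What this entry stands for is unknown. When that entry was left out and the rest of the authors' deposited table rescaled to sum to 1, the junction had 0.971 on HFD and 0.892 on LFD, a difference of 0.0791. The PSI tables hold the same LSV without the entry of length 0. They also lack its junction from 38568917 to 38569502, which the authors' deposited table gives 0.002 on HFD and 0.001 on LFD. In the PSI tables the junction from 38568917 to the 95-base exon had 0.972 ± 0.0168 on HFD and 0.860 ± 0.0317 on LFD, a difference of 0.112. The direction was shared by all 3 versions, and the size was under 0.2 in both versions that lack the entry of length 0. A junction outside M21 from the same donor to base 38569932 had 0.0127 on HFD and 0.0813 ± 0.0252 on LFD in the PSI tables.

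**Figure D4:**
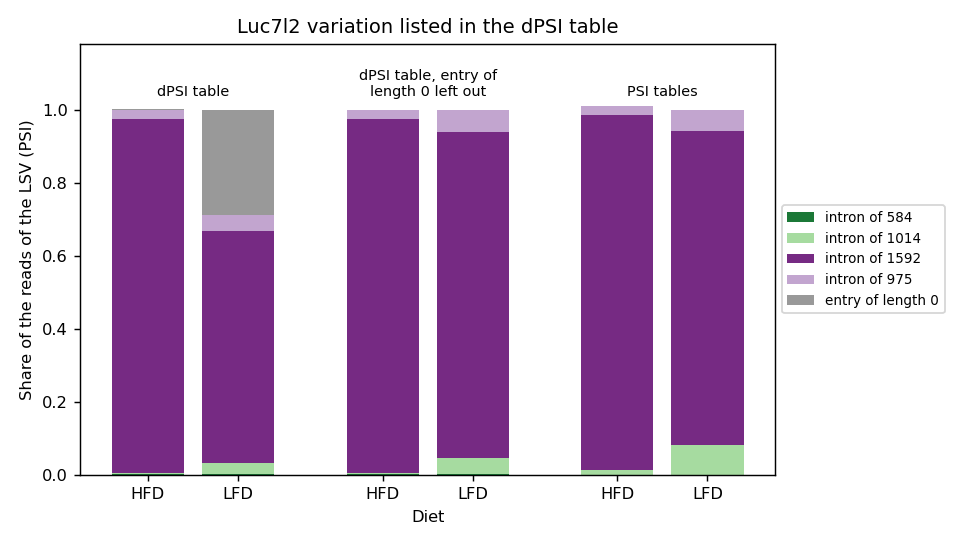
Stacked shares of the entries of the listed Luc7l2 LSV (vertical axis, PSI) on HFD (left bar of each pair) and LFD (right bar) in the authors' dPSI table, in that table without its entry of length 0, and in the PSI tables, with junctions named by intron length in bases. The entry of length 0 holds 0.288 of the LFD bar in the authors' dPSI table; PSI values are separate posterior means, so a stack need not reach exactly 1.

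Downstream, Luc7l2 showed smaller differences. A 30-base exon at chr6:38598785-38598814, coding in Luc7l2-201, was included with a PSI of 0.566 ± 0.0290 on HFD and 0.521 ± 0.0284 on LFD seen from the exon before it. Seen from the exon after it, inclusion was 0.586 ± 0.0303 on HFD and 0.521 ± 0.0285 on LFD. The 95% intervals of both differences included 0. A 47-base NMD exon at chr6:38571042-38571088 was entered with 0.0606 on HFD and 0.0778 on LFD and left with 0.0680 on HFD and 0.0572 on LFD.

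Luc7l had 3 LSVs measured on both diets, and in each of them 1 junction took nearly all reads, with differences no larger than 0.000528. All PSI values of these LSVs lay at or near the lowest and highest that these tables hold, 0.0125 and 0.9875. None of these LSVs covers the 71-base exon. That exon appears in the authors' deposited JUM table, which lists alternative splice sites by a second program. From the donor at chr17:26253091, the authors' deposited table gives the acceptor of the 71-base exon a change of 0.238 on HFD relative to LFD. The same table of the authors gives the acceptor of the 95-base coding exon, used by Luc7l-201, Luc7l-202 and Luc7l-203, a change of -0.238. The p-value in the authors' deposited table is 0.0287 and the adjusted p is 0.315, so 0 of 1 member events passed an adjusted p of 0.05, against 17.7% of the 470 listed events. JUM events are listed there only with a p-value under 0.05, so this p-value and the 17.7% describe an already filtered list. The higher coordinate of each junction in the authors' deposited table lies 2 bases before an M21 exon start, and 314 of 433 junctions of this kind match M21 after that shift. For the matching exon of Luc7l2, the difference at the acceptor of the next coding exon was 0.124 in the PSI tables, a different quantity from a different program and the same mice. How reads of such similar exons were assigned to either gene was not tested.

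Luc7l3, the family member known to associate with RBM25, had 5 LSVs on both diets and none with a difference of 0.1. Its largest difference was at the 3' end of the gene, on the minus strand of chromosome 11. At the donor of the exon at 94293085, the junction to the exon end at 94291578, which occurs in Luc7l3-203, had a PSI of 0.863 ± 0.0240 on HFD and 0.773 ± 0.0268 on LFD, a difference of 0.0908. Seen from its acceptor, the same junction had 0.932 ± 0.0186 on HFD and 0.892 ± 0.0211 on LFD, a difference whose 95% interval included 0. The competing junction between 94293032 and 94293138, used in Luc7l3-201, had 0.0559 ± 0.0167 on HFD and 0.104 ± 0.0196 on LFD. An intron entry of 29 bases at the same exon had 0.0687 on HFD and 0.122 on LFD. In a further LSV, the junction between 94297920 and 94298950 had 0.0279 ± 0.0145 on HFD and 0.0125 on LFD, a difference of 0.0154.

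Rbm25 held the 1 member entry past the rule, at the acceptor chr12:83642629 of the exon with the start codon of Rbm25-201. The junction from the 118-base exon printed above, found in Rbm25-207, Rbm25-209, Rbm25-210 and Rbm25-215, had a PSI of 0.485 ± 0.0497 on HFD and 0.259 ± 0.0406 on LFD. The difference was 0.226 (95% posterior interval 0.1 to 0.351), or 3.52 combined SD, just inside the limit of 0.2. Just outside it was the junction from a 64-base exon at chr12:83639128-83639191, with 0.0780 ± 0.0262 on HFD and 0.273 ± 0.0415 on LFD, a difference of -0.195 (-0.291 to -0.0983). The direct junction of Rbm25-201, from base 83632417, had 0.435 ± 0.0491 on HFD and 0.467 ± 0.0466 on LFD and differed by less than 1 combined SD. On HFD the junction from the 118-base exon and the direct junction thus took similar shares. On LFD the direct junction led, and the junctions from the 118-base and 64-base exons were close to each other. Rbm25-207, Rbm25-210 and Rbm25-215 have both the junction to the start of the 64-base exon and that out of the 118-base exon. Shares at this acceptor are therefore no measure of how often the 64-base exon itself was used. The 64-base exon carries no coding base in Rbm25-203.

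The donor at 83632417 also had an LSV of its own, but in the LFD table alone. On LFD it sent 0.748 ± 0.0499 of its reads directly to 83642629, 0.0915 to an acceptor at 83635402 by a junction outside M21, 0.0847 to the 64-base exon and 0.0762 to the 118-base exon. No HFD value stands beside these.

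Elsewhere in Rbm25 the differences were under 0.1 with 95% intervals that included 0. A pair of junctions outside M21 bounds a stretch of 62 bases, chr12:83661207-83661268, and whether both flank the same exon was not tested. The junction to its start had a PSI of 0.134 ± 0.0308 on HFD and 0.171 ± 0.0289 on LFD. The junction from its end had 0.0784 ± 0.0251 on HFD and 0.147 ± 0.0277 on LFD. Near the 3' end, the junction from 83674663 to 83675044 had 0.851 on HFD and 0.909 on LFD from its donor, and 0.821 on HFD and 0.885 on LFD from its acceptor. Within that span M21 places a 74-base exon of Rbm25-211, at chr12:83674816-83674889, and retention was measured for an intron on either side of it. The junction into this exon had 0.0125 on HFD and 0.0125 on LFD, and the junction out of it 0.0180 on HFD and 0.0125 on LFD. These values are at or near the lowest in these tables. The upstream intron, of 152 bases, had 0.147 on HFD and 0.0902 on LFD, and the downstream one, of 154 bases, had 0.161 on HFD and 0.114 on LFD.

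Rbm39 had the most LSVs, 17 on both diets, and none with a difference of 0.1. Its 73-base NMD exon was in regular use on both diets. The junction that leaves it had a PSI of 0.314 ± 0.0345 on HFD and 0.298 ± 0.0298 on LFD, and the junction that enters it 0.278 ± 0.0328 on HFD and 0.262 ± 0.0294 on LFD. The 95% posterior interval of the difference for the junction into the exon was -0.0707 to 0.102. The difference for the junction from the 118-base Rbm25 exon lies outside this interval, but the interval holds no spread between mice. It therefore cannot exclude a change of that size in the 73-base exon.

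A second NMD exon of Rbm39, of 72 bases, at chr2:156174097-156174168, was left with a PSI of 0.157 ± 0.0231 on HFD and 0.160 ± 0.0199 on LFD. It was entered with 0.128 ± 0.0209 on HFD and 0.0788 ± 0.0153 on LFD, a difference of 0.0492 (-0.00158 to 0.0999). The views from either side of this exon therefore differed in size, and neither passed.

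**Figure D5:**
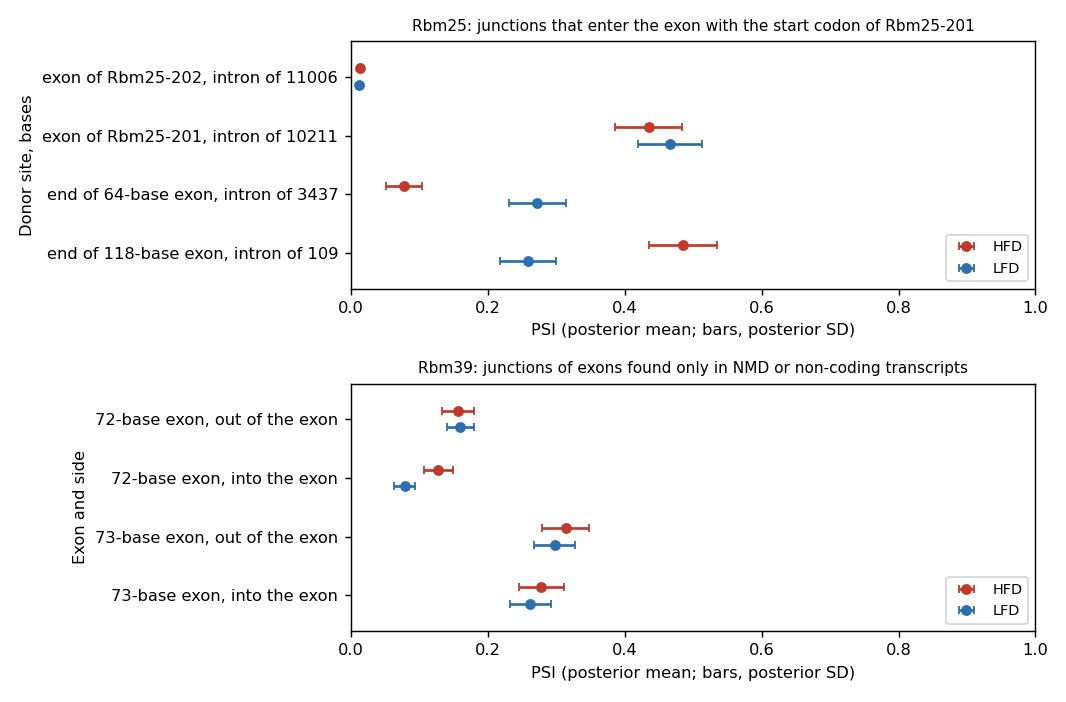
PSI (horizontal axis) of junctions that enter the exon with the start codon of Rbm25-201 (top, donors named by exon and intron length in bases) and of the junctions of the 72-base and 73-base NMD exons of Rbm39 (bottom), on HFD (red, above) and LFD (blue, below) with bars of 1 posterior SD. The junction from the 118-base Rbm25 exon has 0.485 on HFD and 0.259 on LFD, while the bars of the 73-base Rbm39 exon overlap.

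The choice between the acceptors 18 bases apart in Rbm39 was nearly even. The upstream acceptor, which adds the bases in capitals above, had a PSI of 0.490 ± 0.0340 on HFD and 0.452 ± 0.0303 on LFD. At another exon with acceptors 3 bases apart, at chr2:156167538-156167591, the form without the extra 3 bases had 0.117 ± 0.0183 on HFD and 0.0881 ± 0.0153 on LFD. Both 95% intervals included 0.

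The Rbm39 difference that was largest against its SD concerned a junction outside M21, between bases 156173019 and 156177332, whose ends lie 3 and 4 bases from annotated exon ends. Its PSI was 0.0152 ± 0.00783 on HFD and 0.0842 ± 0.0152 on LFD from one side, and 0.0149 ± 0.00735 on HFD and 0.0904 ± 0.0160 on LFD from the other. The differences, -0.0689 and -0.0755, corresponded to -4.02 and -4.29 combined posterior SD and were under 0.1 in size. The intron of this junction has 4312 bases, against 4313 for the annotated junction between 156173022 and 156177336. Sequences at junctions outside M21 were not read, and whether these junctions are truly distinct was not tested. An intron of 93 bases near the 3' end of Rbm39 had 0.0176 ± 0.0102 on HFD and 0.0610 ± 0.0134 on LFD at one end, and 0.0246 on HFD and 0.0339 on LFD at the other, and only the first view had a 95% interval that excluded 0. A retained-intron entry of 178 bases beside the exon end at 156167750 had 0.0600 ± 0.0158 on HFD and 0.0246 ± 0.0129 on LFD, with an interval that included 0.

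Across the members, 35 annotated M21 exons of at most 300 bases had a junction with a PSI on both diets, and 11 of them occur in NMD transcripts and in no protein-coding one. They are 6 in Rbm39, 4 in Luc7l2 and 1 in Rbm25. The length of 8 of the 11 is no multiple of 3. The 71-base exon of Luc7l is of the same kind but has no PSI here. Among these exons, the 71-base exon of Luc7l2 alone had an entry past the limit of 0.1 in the PSI tables.

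A share of the LSVs was in the LFD table alone. For the members these were 4 LSVs, 1 each in Luc7l, Luc7l3, Rbm25 and Rbm39, or 7.55% of their LSVs in the LFD table, against 16.6% of all LSVs there. In Luc7l the LSV at 26280128 sent 0.984 of its LFD reads through 1 junction, and in Luc7l3 the LSV at 94321690 sent 0.987. In Rbm39 the LSV of junctions that leave the 73-base exon had LFD values of 0.863 for the junction to the coding exon boundary at 156177385 and 0.137 for a junction of Rbm39-222. None was in the HFD table alone, against 1.94% of all LSVs in that table. Posterior SDs of entries with PSI from 0.1 to 0.9 were larger on HFD in 22 of 24 member entries, with medians of 0.0316 on HFD and 0.0291 on LFD. Over all such entries, 81.3% had the larger SD on HFD. Read depth per library is unknown, and its part in which LSVs appear was not tested.

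Other factors that act at the same splice sites were counted by the same rule. Of 22 listed genes of the U1 snRNP and 5' splice site, 17 had LSVs on both diets, 79 in all, and 1 LSV passed the PSI rule, against 0.624% of all LSVs. It belongs to Prpf38b, which encodes a relative of a pre-mRNA splicing factor, where the junction between 108908083 and 108908326 on chromosome 3 had a PSI of 0.351 ± 0.0534 on HFD and 0.140 ± 0.0311 on LFD, a difference of 0.211. The authors' deposited JUM table lists the same choice with a difference of 0.240, at an adjusted p of 0.333. Of 26 genes of U2AF and the 3' splice site, 19 had LSVs on both diets, 113 in all, and 0 passed the rule. Son, a splicing cofactor in that list, is in the authors' deposited JUM table, where one acceptor has a difference of 0.0869 at an adjusted p of 0.351. The median largest difference was 0.0117 over the first list and 0.0132 over the second, against 0.00681 over all LSVs.

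The tables give shares of reads and no expression levels, so the labelled cell type could be checked only by which marker genes had LSVs on both diets. Of the marker lists, 9 of 10 hepatocyte, 1 of 6 macrophage, 2 of 6 endothelial, 1 of 5 stellate cell and 1 of 5 bile duct genes had any. Whether other liver cells contributed to the member values was not tested.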

How the data were processed

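The submitters' processing notes name FastQC, STAR and mm10, with their versions not given in the sources used here. The deposited PSI tables, with posterior variances, and the dPSI table came, per the file headers, from voila, the viewer of MAJIQ, and a further table of changes, p-values and adjusted p-values from JUM. All are lists of several values per cell, so their unit was recorded as other. The authors pooled 3 libraries per diet, and depth is unknown.

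From these, differences (HFD minus LFD) and combined posterior SDs, the root of the summed variances, were computed with Python 3.11.15, pandas 2.3.3 and numpy 2.4.6. A 95% posterior interval treats the difference as normal with that SD. The rule, a difference of 0.2 and an interval without 0, was run on simulated reads with changes well above 0.2 or none. That simulation had no variation between mice, so it cannot show how the rule fares with such variation or near 0.2. The probability column of the dPSI table goes against its heading and was not used: all 205 junctions with a change under 0.2 have at least 0.95.

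Entries named were those past the rule, those listed by the authors, and the 3 LSVs per gene with the largest difference; other entries were chosen for their annotation after their values were seen. The members and lists were chosen with earlier results of these data known. Transcript types and sequences are from GENCODE M21. The alternatives tried were limits of 0.1 and 0.3, a 99% interval, adjusted p limits of 0.1 and 0.01, and leaving out entries of length 0.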

Additional observations from a re-analysis of the deposited data

How the results depend on the processing

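With a smallest PSI difference of 0.1, 7 member entries in 4 LSVs passed, and with 0.3 the count was 0 for both, against 1 entry and 1 LSV at 0.2. The count stayed at 1 with a 99% interval. The 1 member LSV in the dPSI table became 0 when its entry of length 0 was left out and a change of 0.2 was still required, an alternative chosen after seeing the data. No member JUM event passed an adjusted p of 0.1, 0.05 or 0.01. The PSI tables hold no member entry of length 0, so leaving out such entries could change no member count or PSI difference. The dPSI table also lists 3 of the 17 named entries, and all 3 moved by more than their combined SD: the junction from 38568917 to 38570510 had 0.341 there against 0.112, the one to 38569932 had -3.13e-05 against -0.0686, and the one from 38569534 had -0.000108 against -0.0334. Those values are the listed dPSI, which is not the difference of the PSI listed beside it. For the junction to 38569932 that PSI was 0.002 on HFD and 0.032 on LFD. For the one from 38569534 it was 0.025 on HFD and 0.044 on LFD. Without the entry of length 0, differences of the rescaled PSI were 0.0791, -0.0429 and -0.0368. Of the 3, only the junction to 38569932 lay more than 1 SD from the PSI tables. Listed dPSI and rescaled PSI differences are different quantities, so the effect of leaving out the entry cannot be read from their gap. No paired analysis was possible because no table has values per library, and for the same reason no library could be left out. Posterior SDs cover reads within the pooled libraries, not mice.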
